A study of Mus musculus with 24 samples.

Results

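The genes described here encode the machinery that copies DNA and the enzymes that make its building blocks. They are 46 genes named by symbol, matched through their Ensembl identifiers among the 37991 genes of the count table. All 46 were found, and all 46 were among the 14918 genes with enough counts to be tested. By role they fall into 8 licensing factors, the 6 subunits of the MCM helicase, 2 relatives of that helicase, 6 factors that fire origins, 9 polymerase and primase subunits, the sliding clamp with its 5 loader subunits, 5 genes for the single-strand binding protein RPA, a flap nuclease and a ligase, and 4 enzymes of deoxynucleotide (dNTP) synthesis.

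RNA was sequenced from mammary tumors and normal mammary glands of 24 female mice in 8 groups. Each group held 3 mice, PyMT or FVB, aged 6, 8, 10 or 12 weeks. PyMT mice were F1 females heterozygous for MMTV-PyVT, the middle T antigen of polyoma virus driven by the long terminal repeat of mouse mammary tumor virus. They came from transgenic FVB/N males crossed to FVB females. The controls were homozygous FVB females of the same age, without the transgene. By their labels the PyMT samples of week 6 were hyperplasia and those of week 8 adenoma/MIN (mammary intraepithelial neoplasia), and weeks 10 and 12 gave early and late carcinoma. The promoter acts in the mammary epithelium, whereas the RNA came from bulk tissue, labelled mammary gland at week 6 and tumor from week 8 on in PyMT mice. The level of a gene per cell and the share of cells that express it can therefore not be told apart in any value below. The transgene itself was not analysed here.

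Total counts ranged from 6969375 to 13516601 per sample. In 13 libraries, 6 of PyMT and 7 of FVB mice, many genes shared the same small count of 8 to 25, called a packet here. Its source was not tested. FVB week 8 replicate 1, PyMT week 8 replicate 2 and FVB week 10 replicate 3 had the most genes at 0, with 1.92%, 2.87% and 4.40% of 3799 genes of middle abundance. The next library, PyMT week 6 replicate 2, was close to the first of these at 1.66%. In 7 libraries the mean level of 10 skeletal muscle markers was above 9 on the log2 scale, and muscle markers took up to 4.61% of the counts. Luminal epithelial markers were present in all 24 samples, with a mean log2 level of 8.36 to 11.66. The share of the labelled tissue in each library was not tested.

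DNA replication begins when the origin recognition complex, with Cdc6 and Cdt1, loads the MCM helicase onto origins, a step called licensing. Cdc45 and the GINS complex then join the helicase and switch it on, polymerase alpha with primase lays down primers, and polymerases delta and epsilon extend them on the sliding clamp PCNA. Ribonucleotide reductase, thymidylate synthase and thymidine kinase supply the dNTPs. Most cells of a resting adult gland are outside the cell cycle and express these genes at low levels, and cells that divide express them from late G1 into S phase.

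The first comparison asked how the replication genes differed between tumors and normal glands over all ages, with 12 PyMT against 12 FVB samples and the week as a block. A gene is said to have passed where the adjusted p of edgeR's quasi-likelihood test was under 0.05 and the fold change was above 2. In this comparison 22 of the 46 replication genes passed as higher in PyMT tissue, where 8.51% of all tested genes did. With the adjusted p alone, without a minimum fold, 33 were higher (23.6% of all tested genes) and 1, Orc3, was lower (27.5% of all tested genes). No member passed as lower by this test, nor by DESeq2 or limma voom, and of the 37 members with an unadjusted p under 0.05 (56.3% of all tested genes) Orc3 was the only one with a lower value. Over all tested genes 17.2% passed as lower. The median log2 fold change of the members was 1.01, or 2.02-fold, beside -0.03 over all tested genes. The value was above 0 in 44 of 46 members, all but Orc3 and Orc5, beside 7249 of the 14918 tested genes. Without the 7 libraries with high muscle markers 23 members passed, and without the 3 libraries with the most genes at 0, 20 did. The strength differed by role, as the plot of fold changes by gene shows. The 4 dNTP enzymes had the highest median log2 fold change, 1.77, followed by 1.49 in the MCM hexamer, 1.28 in the group of RPA, flap nuclease and ligase, and 1.22 in the firing factors. The medians of the clamp and its loader (1.06) and of the polymerases and primase (0.84) were lower, and those of the licensing factors (0.38) and of the 2 MCM relatives (0.30) were the lowest. These medians describe the lists and were not tested against each other.

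**Figure D1:**
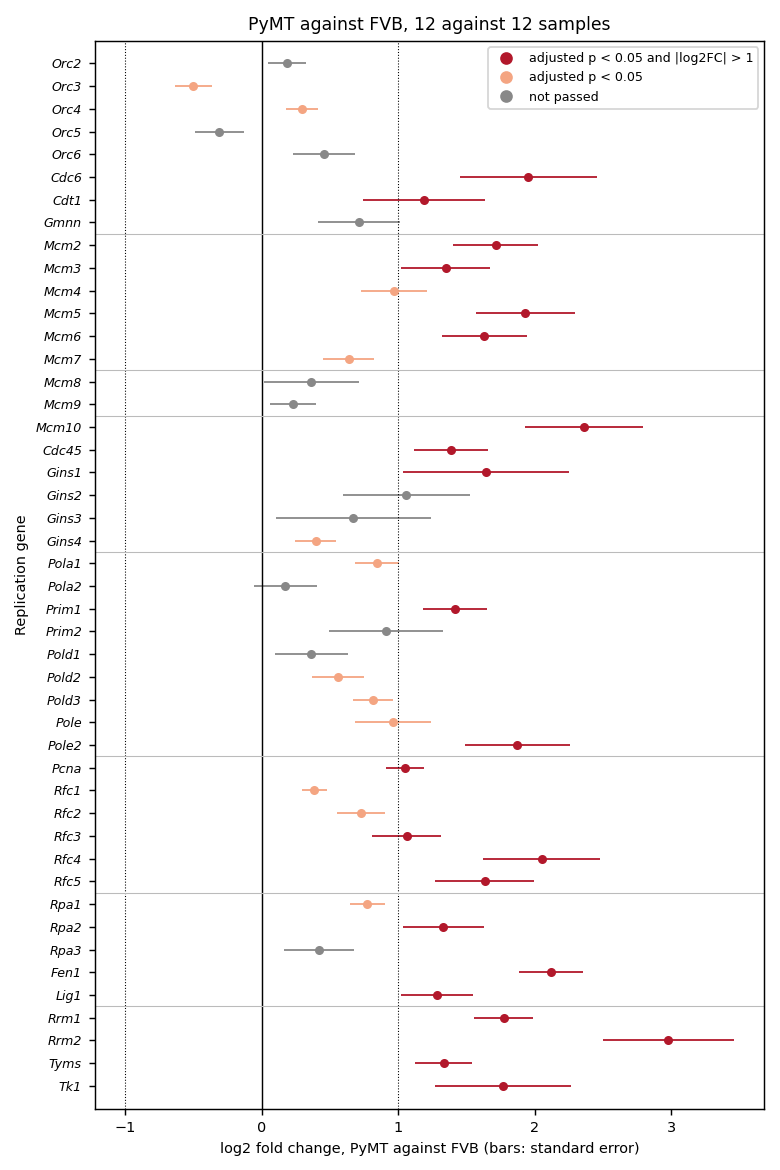
Log2 fold change of each of the 46 replication genes in 12 PyMT against 12 FVB samples, with the standard error as a bar, ordered by role. Red points passed (adjusted p under 0.05 and above 1), orange points had an adjusted p under 0.05 only, and grey points did not pass. Rrm2 is farthest to the right at 2.98, and Orc3 is the one orange point to the left of 0.

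In single samples the levels of 6 members did not overlap between the genotypes: Mcm10, Pole2, Rfc4, Rfc5, Fen1 and Rrm2 were higher in each of the 12 PyMT samples than in any of the 12 FVB samples. Over all tested genes 4.67% were separated in that direction. Taking each week by itself, the 3 PyMT samples lay above the 3 FVB samples at all 4 weeks for 9 members (Mcm5, Mcm10, Prim1, Pole2, Rfc4, Rfc5, Fen1, Rrm1 and Rrm2), beside 6.88% of all tested genes.

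**Figure D2:**
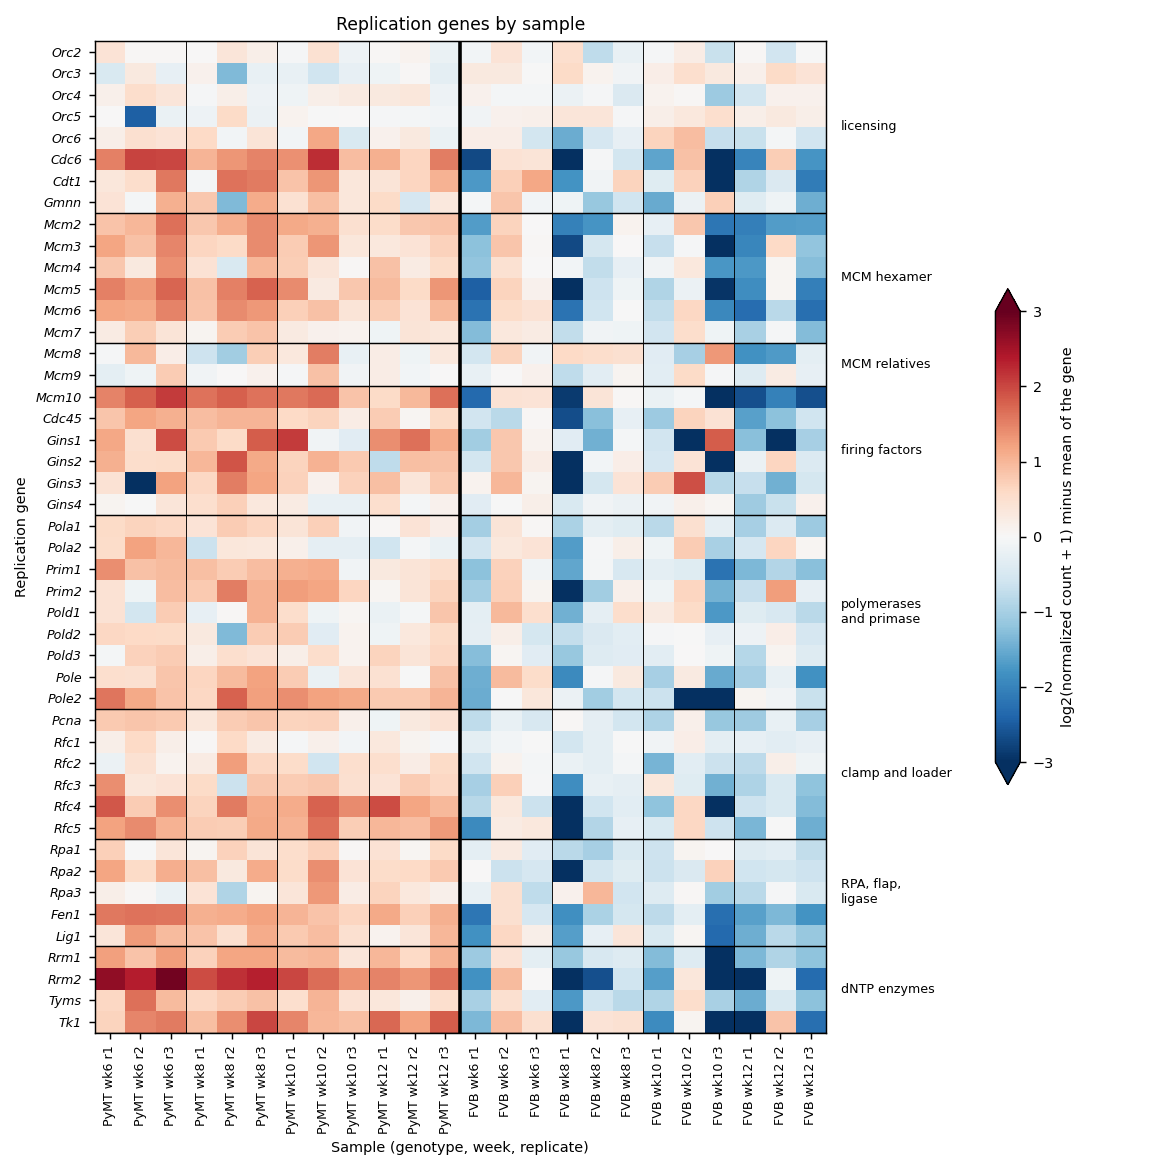
Level of the 46 replication genes (vertical axis, by role) in each of the 24 samples (horizontal axis, PyMT left of the thick line, FVB right), as log2(normalized count + 1) minus the mean of the gene. Red is above and blue below the mean of the gene. PyMT samples are mostly red for the MCM hexamer, clamp loader and dNTP enzymes, FVB samples differ among themselves, and Orc3 and Orc5 show little contrast.

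The promoters of the members were read from the RefSeq table (build GRCm38.p6), which holds 250 bases before and 50 bases after each start site. Of the 46 members 38 are in it. They were searched for the E2F site, the motif bound by the E2F factors that are known for switching on genes of S phase, written as TTTCGCGC or TTTGGCGC, and on the other strand as GCGCGAAA or GCGCCAAA. A match stood in 9 of the 38 members (23.7%), beside 0.833% of 27025 genes with promoters of the same length. The 9 genes are Cdt1, 5 of the MCM genes (Mcm3, Mcm5, Mcm6, Mcm7 and Mcm8), Pola1, Pole2 and Rfc3. The stretches of 30 bases around the matches are shown because they are what these promoters share by sequence. They are given on the strand of the gene, with the match in capitals.
Mcm5, chr8:75109347-75109376, plus strand: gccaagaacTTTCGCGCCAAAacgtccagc
Mcm6, chr1:128359795-128359824, minus strand: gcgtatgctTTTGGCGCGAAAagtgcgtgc
Mcm7, chr5:138171849-138171878, minus strand: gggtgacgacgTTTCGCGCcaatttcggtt
Mcm3, chr1:20820263-20820292, minus strand: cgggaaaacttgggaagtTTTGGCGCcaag
Mcm8, chr2:132816161-132816190, plus strand: gcagaagcgcgtcatagacGCGCCAAAaaa
Cdt1, chr8:122568035-122568064, plus strand: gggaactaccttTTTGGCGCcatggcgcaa
Pola1, chrX:93632275-93632304, minus strand: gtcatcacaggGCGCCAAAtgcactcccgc
Pole2, chr12:69228162-69228191, minus strand: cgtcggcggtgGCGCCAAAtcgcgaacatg
Rfc3, chr5:151651200-151651229, minus strand: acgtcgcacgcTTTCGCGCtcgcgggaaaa
In Mcm5 and Mcm6 the capitals hold 2 matches that overlap, 1 on each strand. Mcm6 has another match closer to the start site, 47 bases before it. In Mcm7 the end of the match runs into a CCAAT letter string, 24 bases after the start site.

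Other motifs of the same promoters were searched on both strands in the same way. CCAAT, the box bound by NF-Y, was found in 23 of 38 members (60.5%, beside 37.9% of all genes), and GGGCGG, the GC box, in 28 (73.7%, beside 35.9%). TATAAA, the letters of the TATA box, stood in Cdc45 and Fen1 only (5.26%, beside 14.2%), 177 and 224 bases before the start site. The nearest CCAAT box before the start site is shown for 4 members whose PyMT samples lay above the FVB samples at every week, as examples of the box and not of a link to the size of the difference.
Mcm10, chr2:5012797-5012826, minus strand: gttccggtggagCCAATcagagcgtcctcc
Prim1, chr10:128015194-128015223, plus strand: gtcttgttcccgCCAATtctcgtgtcagtc
Rrm1, chr7:102441638-102441667, plus strand: gtccgctttcacCCAATgtggtggaaagga
Rrm2, chr12:24708192-24708221, plus strand: ggtcagcggcgtCCAATgggaggcgaggcc
The median log2 fold change over the 4 weeks was 1.19 in the 9 members with an E2F match and 1.05 in the 29 without it in these letters. The 2 ranges, 0.36 to 1.93 and -0.50 to 2.98, overlap, and the difference was not tested. Other forms of the E2F site and further start sites of a gene were not searched. For the CCAAT box the median was 1.05 in the 23 members with it and 1.28 in the 15 without it. A match is a string of letters and no measurement of binding.

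Among the licensing factors only the helicase loaders Cdc6 and Cdt1 passed, and none of the 5 origin recognition subunits among the members did, with log2 fold changes of -0.50 to 0.46. Cdc6 (ENSMUSG00000017499, chr11:98769115-98785254, plus strand of mm9, as are all gene positions below), which brings the helicase to the origin, had normalized counts of 103.6 to 311.2 (median 181.4) in PyMT and of 0 to 123.2 (median 33.4) in FVB samples. Of the 12 PyMT samples 11 lay above the highest FVB sample. Its log2 fold change was 1.95 ± 0.50 (SE, n = 12 per genotype, adjusted p = 0.00216, edgeR). At week 10, Cdc6 read 173, 311 and 128 in PyMT and 21.6, 123 and 0 in FVB mice, so the smallest PyMT value and the largest FVB value were close. Orc3 (ENSMUSG00000040044, chr4:34518045-34562193, minus strand), a subunit of the origin recognition complex, was the exception to the direction of the list. Its counts ran from 188.5 to 581.9 (median 399.2) in PyMT and from 441.9 to 702.7 (median 578.1) in FVB samples, with a log2 fold change of -0.50 ± 0.13 (adjusted p = 0.00309, edgeR). The ranges overlap widely, and the difference is smaller than the 2-fold minimum. Orc5, of the same complex, also had values below 0 at each week (-0.60, -0.12, -0.25 and -0.22) but an adjusted p of 0.163 over the 4 weeks. Orc2 had medians of 282.1 and 263.6 in PyMT and FVB samples and a log2 fold change of 0.19 ± 0.14 (adjusted p = 0.271, edgeR). Gmnn, which encodes geminin, the inhibitor of Cdt1, had a value of 0.71 ± 0.30 that missed the threshold (adjusted p = 0.0526, edgeR). Cdt1 itself was at 1.19 ± 0.45 (adjusted p = 0.0288, edgeR). Orc4 was at 0.30 ± 0.12 and Orc6 at 0.46 ± 0.23 (adjusted p = 0.04 and 0.097, edgeR), both under 2-fold.

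All 6 subunits of the MCM hexamer, the ring that unwinds DNA, were higher in PyMT tissue by adjusted p, and Mcm2, Mcm3, Mcm5 and Mcm6 also passed the 2-fold minimum. Mcm2 (ENSMUSG00000002870, chr6:88833469-88848774, minus strand) had normalized counts of 400.04 to 904.3 (median 543.5) in PyMT and 62.6 to 498.0 (median 89.5) in FVB samples, a log2 fold change of 1.71 ± 0.31 (adjusted p = 6.41e-05, edgeR). At week 12 the groups were far apart, with 417, 500.03 and 517 in PyMT and 68.6, 88.2 and 89.7 in FVB mice, whereas at week 10 the FVB mice read 240.05, 498 and 62.6. Mcm5 (ENSMUSG00000005410, chr8:77633427-77652338, plus strand) was at 1.93 ± 0.36 (adjusted p = 8.76e-05, edgeR). Its PyMT samples read 910, 776 and 1073 in hyperplasia, 590, 905 and 1092 in adenoma/MIN, 846, 383 and 554 in early carcinoma and 612, 478 and 805 in late carcinoma. The FVB samples of the same ages, in turn, read 57.9, 508 and 350, then 21.4, 208 and 290, then 171, 283 and 40.7, and 87.4, 331 and 76.5. Each week's PyMT samples were above that week's FVB samples, and across weeks only the PyMT week 10 value of 383 and the week 12 value of 478 reached into the FVB range. Mcm6, Mcm3 and Mcm4 lay between them and the least of the ring, at 1.63 ± 0.31, 1.35 ± 0.33 and 0.97 ± 0.24 (adjusted p = 0.000106, 0.00138 and 0.00178, edgeR). Mcm7 (ENSMUSG00000029730, chr5:138605811-138613650, minus strand) differed least of the ring, with medians of 593.6 and 440.6 and a log2 fold change of 0.64 ± 0.18 (adjusted p = 0.00554, edgeR). Its exons overlap those of Cops6 and Ap4m1 on the opposite strand, which limits its value where reads of both strands were counted.

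The order of the ring's subunits differed between the genotypes when levels were taken per kb of exon. In PyMT tissue Mcm5 was the highest subunit with 214.9 ± 65.4 normalized counts per kb (mean ± SD, n = 12) and Mcm7 the lowest with 141.4 ± 31.0. In FVB tissue Mcm7 was the highest with 92.6 ± 37.0 and Mcm5 the lowest with 57.8 ± 43.6. The spread of neighbouring subunits overlaps in both genotypes, and the highest was 1.52 and 1.60 times the lowest. Within a sample, the log2 ratio of Mcm5 to Mcm7 (normalized counts + 1, not per length) ran from -0.46 to 0.76 (median 0.27) in PyMT and from -3.70 to -0.24 (median -1.20) in FVB samples. This order is given as a description with no test. The 2 relatives of the ring, Mcm8 and Mcm9, which act in repair of DNA breaks rather than in the replication fork helicase, did not pass. Mcm8 had medians of 64.2 and 48.0 and a log2 fold change of 0.36 ± 0.35 (adjusted p = 0.404), and Mcm9 had 137 and 127.8 and 0.23 ± 0.17 (adjusted p = 0.271, both edgeR).

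**Figure D3:**
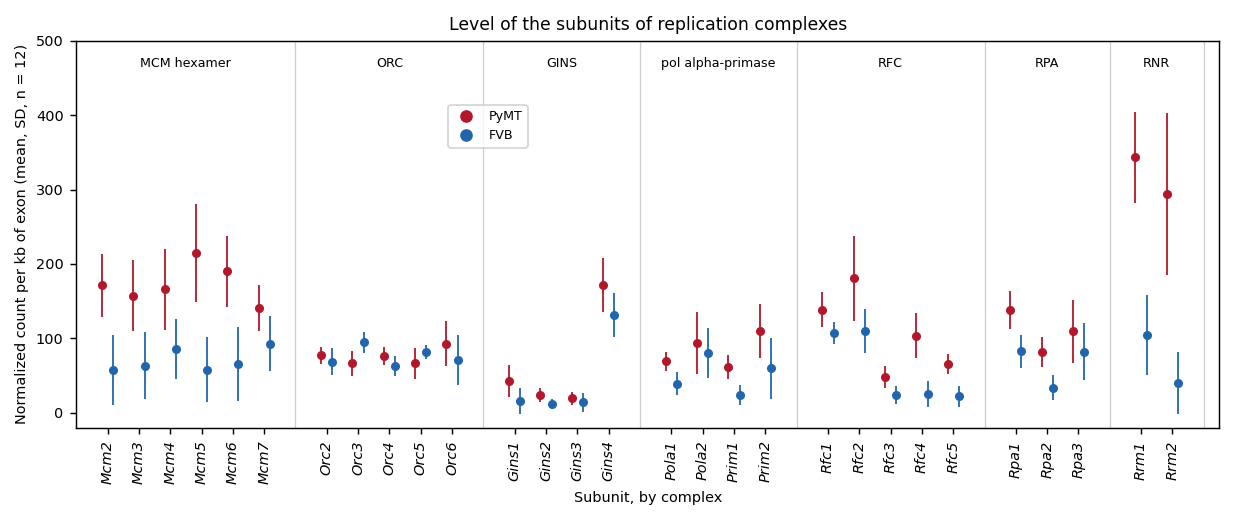
Mean level of each subunit of 7 replication complexes in normalized counts per kb of exon (vertical axis), with the SD over 12 PyMT (red) and 12 FVB (blue) samples as a bar. The MCM hexamer, ribonucleotide reductase (RNR) and most loader subunits (RFC) are higher in red, whereas Orc2 to Orc6 of the origin recognition complex (ORC) lie between 62.8 and 94.7 in both genotypes.

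Of the factors that fire licensed origins, Mcm10, Cdc45 and Gins1 passed. Mcm10 (ENSMUSG00000026669, chr2:4910760-4933837, minus strand) helps to recruit polymerase alpha and to switch on the helicase. Its PyMT samples read 225, 279 and 343 in hyperplasia, 251, 281 and 251 in adenoma/MIN, 242, 263 and 146 in early carcinoma and 119, 158 and 254 in late carcinoma. In the same order of age, the FVB samples read 15.1, 109 and 107, then 10.1, 105 and 81.4, then 69.7, 77.2 and 0, and 12.1, 18.9 and 12.0. No FVB sample reached the lowest PyMT sample, and the log2 fold change was 2.36 ± 0.43 (adjusted p = 6.76e-05, edgeR). Cdc45, the partner of the active helicase, had counts of 105.8 to 230.5 (median 177.2) in PyMT and 15.1 to 162.3 (median 62.3) in FVB samples, at 1.39 ± 0.27 (adjusted p = 0.000144, edgeR). At week 10 its FVB samples read 46.7, 162 and 136 beside 155, 162 and 118 in PyMT, so the groups mixed at that age. The GINS complex was uneven: Gins1 was at 1.64 ± 0.61 and Gins4 at 0.40 ± 0.15 with adjusted p of 0.0263 and 0.0293, while Gins2 (1.06 ± 0.47) and Gins3 (0.67 ± 0.57) missed the threshold at 0.0611 and 0.336. Gins3 was low in all samples, with medians of 47.0 and 25.3, a PyMT sample at 1.04 and an FVB sample at 0. The exons of Gins2 share 2758 bases with Gse1 on the opposite strand, which leaves its counts uncertain.

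Polymerase and primase genes were higher in PyMT tissue in 6 of 9 cases by adjusted p, but only Prim1 and Pole2 exceeded 2-fold. Prim1 (ENSMUSG00000025395, chr10:127452228-127467093, plus strand), the catalytic subunit of primase, had counts of 126.2 to 355.2 (median 251.03) in PyMT and 28.2 to 219.05 (median 84.6) in FVB samples. Its log2 fold change was 1.42 ± 0.23 (adjusted p = 1.91e-05, edgeR). The difference had the same direction in the samples of each week without overlap, although the highest FVB sample, at week 6, was above 4 PyMT samples of later weeks. Pold3, an accessory subunit of polymerase delta, had 11 of 12 PyMT samples above the highest FVB sample, with medians of 467.9 and 267.3 and a log2 fold change of 0.82 ± 0.15 (adjusted p = 5.65e-05, edgeR). Here a difference under 2-fold was large beside the spread of samples. Pola2, the second subunit of polymerase alpha, had medians of 237.7 and 230.3 over the 4 weeks and a log2 fold change of 0.17 ± 0.23 (adjusted p = 0.561, edgeR), a sign that turned in 3 of the alternative fits. Its weeks differed: at week 6 the PyMT samples, at 334.7 to 527.7, lay above the FVB samples, at 153 to 304.8, and at week 12 they read 150.1 to 220.1 beside 161.4 to 355.4, with overlap. Its partner Pola1, the catalytic subunit, was at 0.84 ± 0.16 (adjusted p = 0.00011, edgeR). Pole2, a subunit of polymerase epsilon, was at 1.87 ± 0.38 with no overlap between genotypes, whereas Pole, the catalytic subunit, was at 0.96 ± 0.28 and Pold1, the catalytic subunit of polymerase delta, at 0.37 ± 0.27 (adjusted p = 0.000249, 0.00601 and 0.265, edgeR). Prim2, the large subunit of primase, was at 0.91 ± 0.42 and Pold2, an accessory subunit of polymerase delta, at 0.56 ± 0.19 (adjusted p = 0.0712 and 0.0161, edgeR).

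The sliding clamp and all 5 subunits of the loader that closes it around DNA were higher by adjusted p. Pcna (ENSMUSG00000027342, chr2:132074898-132079050, minus strand), the clamp, was the most abundant member per kb of exon in both genotypes, at 348.1 ± 69.6 and 168.8 ± 51.5 normalized counts per kb (mean ± SD, n = 12). Its samples ran from 514.04 to 1005 (median 905) in PyMT and from 256.6 to 626.2 (median 396.3) in FVB mice. The log2 fold change of 1.05 ± 0.14 (adjusted p = 1.07e-06, edgeR) lies just past the 2-fold line, and it was 0.95 without the 7 libraries with high muscle markers. A processed copy, Pcna-ps2, had medians of 77.2 and 50.4, and how reads that fit both were counted was not tested. Rfc4 was the loader subunit with the largest difference, at 2.05 ± 0.43 (adjusted p = 0.00032, edgeR), with counts of 97.3 to 237.5 in PyMT and 0 to 94.2 in FVB samples. Those ranges did not overlap, but their ends came close. Rfc3 had medians of 171.3 and 84.5 and a value of 1.06 ± 0.26 (adjusted p = 0.0012, edgeR), which fell to 0.98 without FVB week 8 replicate 1 and to 0.99 without FVB week 10 replicate 3, under the 2-fold line. Rfc5 was at 1.63 ± 0.36 without overlap between genotypes, Rfc2 at 0.73 ± 0.17 and Rfc1, the large subunit, at 0.39 ± 0.09 (adjusted p = 0.000534, 0.00117 and 0.00105, edgeR).

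Fen1 (ENSMUSG00000024742, chr19:10273622-10278659, minus strand), the nuclease that trims the flaps between Okazaki fragments, had the smallest adjusted p of the list. Its PyMT samples read 649.9, 673 and 654 in hyperplasia, 455, 464 and 497 in adenoma/MIN, 436, 388 and 337 in early carcinoma and 474, 352 and 455 in late carcinoma. Those of the FVB mice, from the youngest to the oldest, read 47.5, 300.04 and 151, then 59.3, 112 and 149, then 124, 176 and 43.8, and 68.6, 84.4 and 61.2. Every PyMT sample exceeded every FVB sample, and the log2 fold change was 2.12 ± 0.23, or 4.34-fold (adjusted p = 5.52e-08, edgeR). An annotated gene on the other strand, Gm10143, shares 1909 bases of exon with Fen1 but had medians of 0.53 and 0. Another, 1810006K21Rik, shares 130 bases and had medians of 342.3 in PyMT and 226.6 in FVB samples. The counts of Fen1 are therefore uncertain where exons are shared. Rpa1, the large subunit of RPA, had counts of 579.8 to 962.4 (median 776) in PyMT and 293.1 to 697.3 (median 452.6) in FVB samples, at 0.77 ± 0.13 (adjusted p = 1.85e-05, edgeR). Rpa2 was at 1.33 ± 0.30 and the small subunit Rpa3 at 0.42 ± 0.26 (adjusted p = 0.000616 and 0.18, edgeR), so the 3 subunits of the trimer had unequal values. Lig1, the ligase that seals the fragments, was at 1.28 ± 0.26 (adjusted p = 0.000256, edgeR).

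All 4 enzymes of dNTP synthesis passed. Ribonucleotide reductase turns ribonucleotides into deoxyribonucleotides, with Rrm1 as its large and Rrm2 as its small subunit. Rrm2 (ENSMUSG00000020649, chr12:25393106-25399011, plus strand) had the largest fold change of the list and is named here for that reason, after its values were seen. Its PyMT samples read 1216, 988 and 1446 in hyperplasia, 756, 889 and 982 in adenoma/MIN, 779, 617 and 493 in early carcinoma and 545, 486 and 595 in late carcinoma. The FVB mice of these ages read 54.5, 372 and 196, then 3.78, 30.2 and 128, then 61.1, 245 and 0, and 21.5, 176 and 38.3. The genotypes did not overlap, and on the log2 scale FVB samples of the same week differed among themselves more than PyMT samples did, with SDs of 1.40 to 4.13 beside 0.15 to 0.33 over the 4 weeks. In normalized counts the SD was larger in FVB samples at week 12 only (85.0 beside 54.6). The log2 fold change was 2.98 ± 0.48, or 7.88-fold (adjusted p = 1.45e-05, edgeR). Rrm1 (ENSMUSG00000030978, chr7:109590209-109618285, plus strand) had counts of 909.3 to 1682 (median 1393) in PyMT and 75.1 to 928.6 (median 350.6) in FVB samples. It was at 1.77 ± 0.22 (adjusted p = 2.51e-07, edgeR), and 11 of 12 PyMT samples exceeded the highest FVB sample. Per kb of exon Rrm1 was 1.17 times Rrm2 in PyMT tissue (343.6 ± 61.3 and 294.5 ± 108.7) and 2.63 times Rrm2 in FVB tissue (105 ± 53.8 and 39.9 ± 41.7), as a description. Tyms, thymidylate synthase, had medians of 318.2 and 115.03 and a value of 1.33 ± 0.21, and Tk1, thymidine kinase, 266.9 and 71.2 and 1.77 ± 0.50 (adjusted p = 9.07e-06 and 0.00478, edgeR). Tk1 was below 2 normalized counts in 2 FVB samples and above 100 in 6, so the FVB level was not a single one.

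The second comparison took each stage by itself, 3 PyMT against 3 FVB samples of the same week. At week 6, hyperplasia, 5 members passed as higher (Cdc45, Pcna, Rpa2, Rrm1 and Rrm2, beside 3.58% of all tested genes), and at week 8, adenoma/MIN, 8 did (Mcm6, Pola1, Pole2, Rpa1, Fen1, Rrm1, Rrm2 and Tyms, beside 3.57%). At week 10, early carcinoma, only Fen1 passed (4.83%), and at week 12, late carcinoma, 21 passed (7.75%). No member passed as lower at any week, by edgeR, DESeq2 or limma voom, where 6.46%, 6.37%, 9.09% and 13.0% of all tested genes did from week 6 to week 12 by edgeR. At an unadjusted p under 0.05, 21, 22, 13 and 32 members differed in the same order of weeks (26.7%, 27.9%, 30.5% and 40.0% of all tested genes), among them Orc3 as lower at weeks 10 and 12. The median log2 fold changes of the 46 members were 0.80, 1.20, 0.98 and 1.21, beside medians between -0.08 and 0.01 over all tested genes. The median of week 10 thus lay between those of the other weeks, although only 1 member passed. The plot of fold changes by week shows that 37 members were above 0 at all 4 weeks, beside 30.1% of all tested genes. Of the members, 23 passed at no single week, 14 at 1 week, 6 at 2 and 3 (Fen1, Rrm1 and Rrm2) at 3 weeks. The same split over all tested genes was not counted, so these numbers describe the members only.

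**Figure D4:**
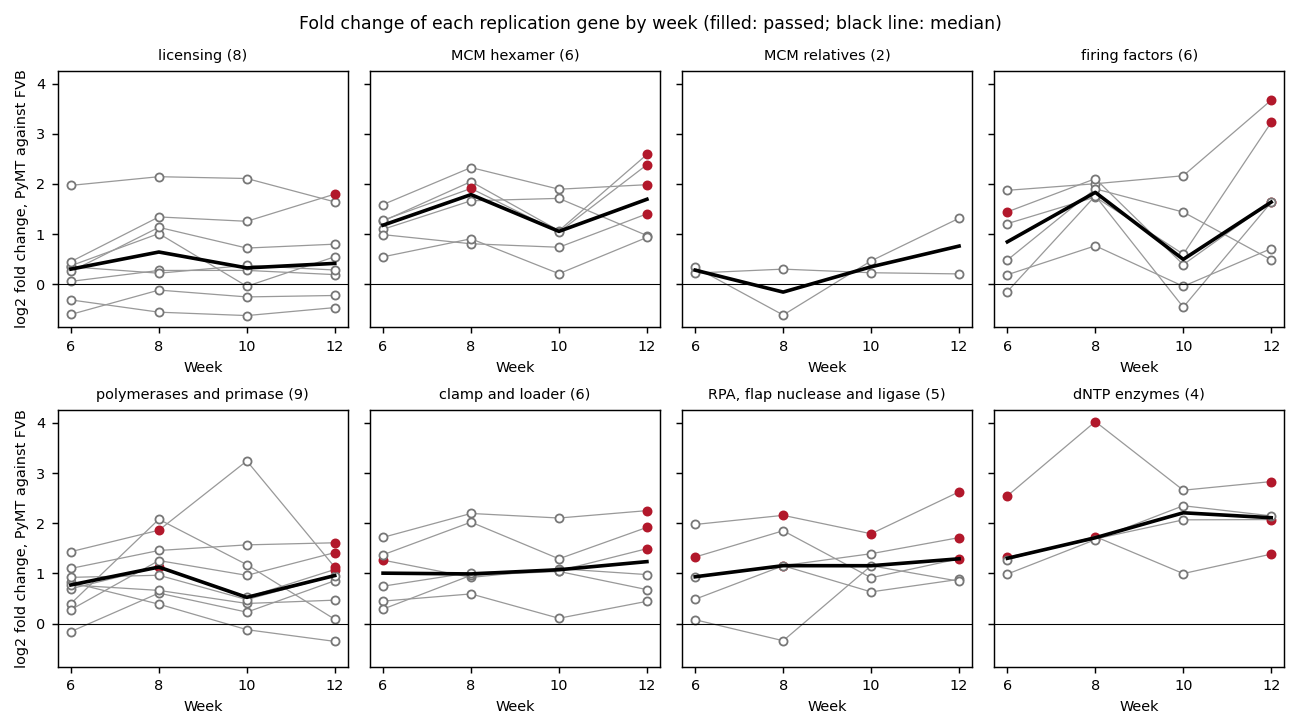
Log2 fold change of PyMT against FVB samples (vertical axis) at weeks 6, 8, 10 and 12 (horizontal axis), in 1 panel for each role, with a grey line for each gene and a black line for the median. Filled points passed. The medians of the MCM hexamer and of the dNTP enzymes are above 1 at each week, and the firing factors have a median of 0.50 at week 10 beside 1.83 at week 8 and 1.64 at week 12.

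At week 12 the passing genes were Cdt1, Mcm2, Mcm4, Mcm5, Mcm6, Mcm10, Cdc45, Gins1, Pola1, Prim1, Pole, Pole2, Rfc3, Rfc4, Rfc5, Rpa2, Fen1, Lig1, Rrm1, Rrm2 and Tyms. The largest fold of that week was that of Mcm10, at 3.67 ± 0.47 (SE, n = 3 per group, adjusted p = 0.00114, edgeR). Mcm2 followed among the ring subunits at 2.59 ± 0.23 (adjusted p = 0.000327), and Fen1 was at 2.62 ± 0.25 (adjusted p = 0.000372, both edgeR). Rrm2, in order of age, was at 2.55 ± 0.57, 4.02 ± 0.89, 2.66 ± 1.11 and 2.83 ± 0.66 (adjusted p = 0.0251, 0.0275, 0.15 and 0.0154, edgeR). Its week 10 value was thus as large as that of week 6 and missed the threshold with the larger error. Rrm1 was at 1.33, 1.69, 2.07 and 2.07 (adjusted p = 0.0449, 0.00941, 0.0502 and 0.000372, edgeR). The samples of 1 week did not overlap and were higher in PyMT for 22, 32, 18 and 31 members at weeks 6, 8, 10 and 12, beside 16.2%, 18.4%, 18.9% and 21.5% of all tested genes. They were lower without overlap for Orc3 and Orc5 at weeks 10 and 12, beside 21.6% and 25.2% of all tested genes, and for no member at weeks 6 and 8 (20.4% and 21.7%).

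These weekly counts rest on single libraries. The count of week 6 was 1 without PyMT replicate 1 or without PyMT replicate 3, 2 without FVB replicate 3 and 8 without FVB replicate 1. At week 8 it was 2 without PyMT replicate 1 or 3, 3 without PyMT replicate 2 or FVB replicate 2 and 13 without FVB replicate 1. At week 10 it was 0 without any of the 3 PyMT samples, 7 without FVB replicate 2 and 8 without FVB replicate 3. At week 12 it was 10 without PyMT replicate 3 and 13 without FVB replicate 1 or 3. The number of all tested genes that passed as higher moved as well. It was 534 at week 6, 323 and 340 without PyMT replicate 1 or 3, and 480 and 474 without FVB replicate 1 or 3. At week 8 it was 533, 194, 371 and 276 without PyMT replicate 1, 2 or 3, and 604 and 220 without FVB replicate 1 or 2. At week 10 it was 720, 376 to 438 without 1 PyMT sample, and 765 and 958 without FVB replicate 2 or 3. The same numbers are not given here for week 12, so its counts describe the members only. Of 21 weekly calls of the genes named by rule and of Rrm2, 9 held in all 6 fits of their week without 1 sample and 12 were lost in at least 1. Those that held were Pcna at week 6, Fen1 and Rrm1 at week 8 and Mcm2, Mcm10, Prim1, Rfc4, Fen1 and Rrm1 at week 12. At week 6 the call of Cdc45 was lost in 5 of the 6 fits (adjusted p = 0.0632 to 0.12, edgeR), that of Rrm1 in 4 (0.0567 to 0.125) and that of Rrm2 in 3 (0.0645 to 0.0827). At week 8 those of Rrm2 (adjusted p = 0.0553 to 0.107, edgeR) and Rpa1 (0.0517 to 0.0796) were lost in 4 fits each and that of Tyms in 3 (0.0535 to 0.0795). Fen1 at week 10 lost its call without any PyMT sample of that week or without FVB replicate 1, with adjusted p of 0.0953 to 0.148 (edgeR). At week 12 Mcm5 lost its call in 5 fits (adjusted p = 0.0524 to 0.099, edgeR), Cdc45 in 3, Rfc3 and Tyms in 2 each and Rrm2 in 1. Each of these values stayed above 0.

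The third comparison asked whether the genotype difference itself changed with age. No member passed for a change from week 6 to week 12 or from week 8 to week 10 by edgeR, DESeq2 or limma voom. By edgeR 0% and 0.00670% of all tested genes passed as higher. At an unadjusted p under 0.05, edgeR's test gave 0 and 3 members, beside 4.63% and 3.57% of all tested genes, DESeq2 0 and 3, and limma voom 2 and 1. The 3 of edgeR were Cdc45 (-1.73) and Gins4 (-0.83), with smaller differences at week 10 than at week 8, and Rpa3 (1.48) with a larger one. The count of 21 members at week 12 beside 5 at week 6 was therefore not borne out by a test of the change itself, and the median log2 change of the difference was 0.37 over the members beside 0.03 over all tested genes. That median rests on single FVB libraries: it was 0.07 without week 6 replicate 2, 0.24 without week 12 replicate 3, 0.67 without week 6 replicate 1 and 0.71 without week 12 replicate 2.

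Within a genotype, week 12 was also set against week 6. In PyMT tissue no member passed by any of the 3 tools. Values were above 0 in 9 of 46 members, beside 7211 of the 14918 tested genes, and the median log2 fold change was -0.24. At an unadjusted p under 0.05 edgeR gave only Pola2 (-1.20), and no member without PyMT week 12 replicate 1, DESeq2 1 and limma voom 7 members, where edgeR gave 6.73% of all tested genes. In FVB tissue no member passed either, and 5 had values above 0, beside 7272 of the 14918 tested genes. The median of the members was -0.65, which became -0.36 without week 6 replicate 2, -0.39 without week 12 replicate 3 and -1.04 without week 12 replicate 2. At an unadjusted p under 0.05 edgeR gave 8 members in the FVB mice (4.19% of all tested genes), DESeq2 9 and limma voom 18. The shares of all tested genes by DESeq2 and limma voom are not given here, so 6.73% and 4.19% are backgrounds for the counts of edgeR only. The 8 were Mcm2 (-1.78), Mcm6 (-1.65), Mcm10 (-2.44), Pola1 (-0.74), Prim1 (-1.18), Pole (-1.24), Fen1 (-1.25) and Rrm1 (-0.96), each lower at week 12. Their number also rests on single libraries, with 1 without week 6 replicate 2, 3 without week 12 replicate 1, 4 without week 12 replicate 3, 5 without week 6 replicate 3, 13 without week 6 replicate 1 and 15 without week 12 replicate 2. The medians over all tested genes were -0.02 and -0.01. None of these values passed after adjustment, where the smallest adjusted p was 0.529 in PyMT and 0.9997 in FVB mice.

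On the log2 scale, samples of the normal gland differed among themselves more than tumors did. The median SD of a member over the 12 samples was 0.41 in PyMT and 0.84 in FVB tissue, beside 0.45 and 0.52 over all tested genes. The SD was larger in FVB tissue for 40 of 46 members, beside 59.9% of all tested genes. The mean log2 level of the 46 members per sample ran from 7.78 to 8.40 in PyMT and from 5.53 to 7.87 in FVB mice. The highest FVB samples were week 6 replicate 2 (7.87) and week 10 replicate 2 (7.54), and the lowest were week 8 replicate 1 (5.53) and week 10 replicate 3 (5.70). Those 2 lowest libraries are among the 3 with the most genes at 0, and both belong to the libraries with packets. They also had the lowest luminal marker levels of all 24 samples, 9.01 in week 8 replicate 1 and 8.36 in week 10 replicate 3. Their skeletal muscle marker levels were 5.07 and 15.08 in that order. In FVB week 10 replicate 3, 7 members had no count (Cdc6, Cdt1, Mcm10, Gins2, Pole2, Rfc4 and Rrm2), and in FVB week 8 replicate 1, 3 had none (Gins3, Prim2 and Rfc5). Gins1 was at 0 in FVB week 10 replicate 2 and FVB week 12 replicate 2, and no member was at 0 in a PyMT sample. A count of 0 allows up to 3 counts in such a library, for counting error alone and without regard to packets. The parts of packets, of luminal and muscle content and of the lower FVB level in the FVB spread were not tested.

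**Figure D5:**
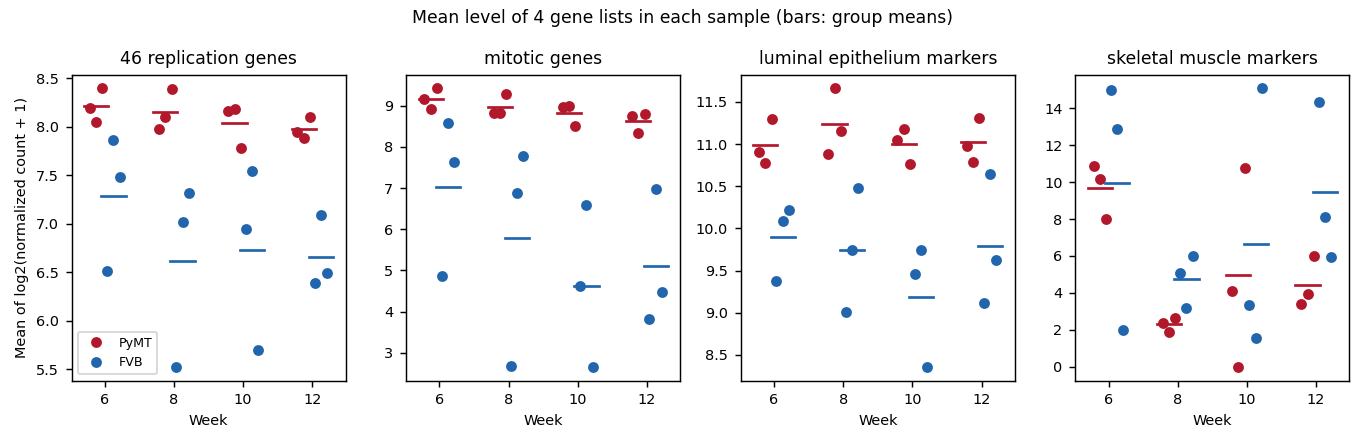
Mean of log2(normalized count + 1) over 4 gene lists (vertical axes, each with its own range) in each sample by week, PyMT in red and FVB in blue, with bars for the mean of 3 samples. Replication and mitotic genes are high in all PyMT samples and spread in FVB samples, luminal markers are mostly higher in PyMT samples, and muscle markers are high in single libraries of both genotypes.

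Other genes of the cell cycle and of the tissue moved beside the replication genes. All 14 mitotic genes passed as higher over the 4 weeks, from Bub1 (1.77) and Ttk (1.90) to Cdc20 (2.74) and Ccnb1 (3.42), which encode checkpoint kinases, an activator of anaphase and cyclin B. Their mean log2 level ran from 8.34 to 9.42 in PyMT and from 2.66 to 8.57 in FVB samples, with the same 2 FVB libraries lowest. Of 8 luminal epithelial markers 6 passed as higher, Cldn4 was higher by adjusted p alone and Krt19 lower, and their mean level was 10.76 to 11.66 in PyMT and 8.36 to 10.65 in FVB samples. All 8 adipocyte markers passed as lower in PyMT tissue, with a mean level of 6.29 to 10.04 beside 12.06 to 13.63 in FVB tissue. All 5 fibroblast and all 3 endothelial markers passed as lower as well, 3 of 6 basal markers did, and of 4 macrophage markers none passed and Csf1r was lower by adjusted p alone. Of the 7 lymphocyte markers none had enough counts to be tested, and their mean level was at most 2.79 in any sample. All 10 muscle markers passed as lower, and in PyMT week 10 replicate 2 all of them were at 0. By week, 0, 2, 0 and 8 of them passed as lower from week 6 to week 12. They were high in single libraries of both genotypes, with a mean level of 0 to 10.88 in PyMT and 1.56 to 15.08 in FVB samples. The part of these tissue differences in the values of the replication genes was not tested.

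The rest of the pathway was read from lists of genes that are no members. Of 31 accessory genes of the replication fork 13 passed as higher and none as lower, with a median log2 fold change of 0.95. By adjusted p alone, 24 were higher. The largest were Top2a, the topoisomerase that untangles copied DNA (2.36 ± 0.43, adjusted p = 5.65e-05), and Asf1b, a histone chaperone (1.71 ± 0.47, adjusted p = 0.00376). The smallest were Pold4 (-0.31 ± 0.21, adjusted p = 0.222) and Pole4 (-0.15 ± 0.17, adjusted p = 0.483, all edgeR), small subunits of polymerases delta and epsilon that did not pass. Orc1, the origin recognition subunit outside the 46, was at 1.68 ± 0.56 (adjusted p = 0.0155, edgeR), whereas none of Orc2 to Orc6 passed.

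Of 22 other genes of nucleotide synthesis 2 passed as higher over the 4 weeks, Dck and Shmt1, and the median log2 fold change of the 22 was 0.35. That is 9.09%, close to the 8.51% of all tested genes. By adjusted p alone 13 were higher and 3 lower (59.1% and 13.6%, beside 23.6% and 27.5%). Dck, deoxycytidine kinase, was at 1.61 ± 0.34 and Shmt1, the cytosolic serine hydroxymethyltransferase, at 1.08 ± 0.17 (adjusted p = 0.000348 and 8.52e-06, edgeR). The lowest were Dguok, the mitochondrial deoxyguanosine kinase, at -0.84 ± 0.16, and Rrm2b, the small reductase subunit of cells outside S phase, at -0.42 ± 0.16 (adjusted p = 9.63e-05 and 0.0366, edgeR). Rrm2b had medians of 231.5 in PyMT and 297.0 in FVB samples, the opposite direction to Rrm2. None of a group of 11 genes of purine and pyrimidine synthesis passed over the 4 weeks, but 6 of them were higher by adjusted p alone. The group was set after the values were seen. Umps, which makes UMP, was at 0.87 ± 0.15 and Pfas, of the purine path, at 0.77 ± 0.10 (adjusted p = 2.17e-05 and 4.8e-07, edgeR). Ppat, which opens the purine path, was at 0.75 ± 0.18 (adjusted p = 0.00119) and at 1.15 at week 12 (adjusted p = 0.00742, both edgeR). Impdh2 was at 0.74, Gart at 0.30 and Paics at 0.26. The other 5, Cad, Gmps, Atic, Adsl and Impdh1, had values of 0.04 to 0.27 and adjusted p of 0.0875 to 0.82 (edgeR).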

How the data were processed

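RNA was measured in 24 mammary samples, 3 for each of 2 genotypes at 4 ages, each from 1 mouse. The authors removed ribosomal RNA, marked the second cDNA strand, trimmed adapters, aligned reads to mm9 with GSNAP and deposited raw counts per Ensembl gene from HTSeq, without normalization. The strand setting of the counting is not given in the sources used here, so genes that share exons on opposite strands are uncertain. Among the members, Cdc45 shares 209 exon bases with Ufd1l, Rfc4 shares 194 with Eif4a2 and Rfc5 shares 499 with Wsb2. The medians of these partners were 434.7, 2981 and 566.8 in PyMT and 482.2, 2681 and 636.3 in FVB samples. Coordinates of promoters are from the RefSeq table of GRCm38.p6 and are not those of the authors' build. No column of the table was left without a sample.

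The 14918 genes (of 37991) that reached 1 CPM in 12 or more samples entered edgeR 4.0.16 (glmQLFit and glmQLFTest, TMM, Benjamini-Hochberg adjustment over all tested genes), run in R 4.3.3. DESeq2 1.42.0 and limma 3.58.1 gave alternatives. A gene passed at an adjusted p under 0.05 with an absolute log2 fold change above 1. Standard errors are the fold change divided by the root of F. Levels are counts divided by DESeq2 size factors, with a pseudocount of 1 on the log2 scale. Each week was fitted on its 6 samples, the 12 against 12 comparison with week as a block, and changes between weeks in 1 fit of the 8 groups. The test was tried on simulated counts with known changes. Total counts of 6969375 to 13516601 limit low genes, and PCR reads are not independent molecules, so limits of 0 cover counting error only.

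The members and the gene lists were chosen with earlier results of these data known. In each role the 2 members with the smallest and the 1 with the largest adjusted p in the 12 against 12 comparison are named with values, both MCM relatives are, and others where they are exceptions to a count. For the other lists the 2 largest and 2 smallest fold changes are named. Others of them, such as Orc1 and the 11 genes of purine and pyrimidine synthesis, were picked after their values were seen. One nucleotide gene with 2 entries in the annotation and 1 macrophage marker without an entry were left out. One further gene of the nucleotide list is not reported here, and the counts of that list do not include it. No 2 samples of a group were alike within sampling noise, with a chi-square per gene of 19.6 to 223.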

Additional observations from a re-analysis of the deposited data

How the results depend on the processing

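Over the 4 weeks the 22 members that passed were 21 to 26 when each sample was left out in turn, and the other fits gave 20 to 31, except a test against a 2-fold minimum (glmTreat) with 9 and the adjusted p alone with 33. With library size only, which moved the median of all tested genes to 0.26, 31 passed, and the split of all passing genes was 2050 higher and 2002 lower beside 1269 and 2571. The members' median log2 fold change was then 1.24, and it was 1.34, with 26 passing, in the libraries without packets. Leaving out samples gave counts of 1 to 8 at week 6, 2 to 13 at week 8, 0 to 8 at week 10 and 10 to 26 at week 12. DESeq2 gave 11, 14 and 7 and limma voom 9, 15 and 10 at weeks 6, 8 and 10. Of all tested genes, DESeq2 gave 744, 841 and 1034 as higher and limma voom 623, 773 and 943. The main fit gave 534, 533 and 720. The 2-fold minimum gave 0, 0, 0 and 6 at the 4 weeks (124, 108, 214 and 410 of all tested genes). Without a filter 14 passed at week 8 and 4 at week 10 (813 and 814 of all genes fitted). Counts divided by the packet size gave 18 and 11 there (891 and 1111 of all tested genes). At week 10 library size only gave 0 and the weaker filter 2 (989 and 731 of all genes fitted). A fit of all 24 samples gave 6 at week 10 and 11 at week 12 (1066 and 828 of all tested genes). The cause of these moves was not tested.

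Samples with the same number were not treated as pairs, and their titles give only a replicate number. The correlation of their deviations was above 0.1 in 4 of 12 pairs. Among the 3 FVB samples of their week, 6 of 12 PyMT samples matched best the one of their number. These values do not decide whether the numbers stand for pairs. A replicate block gave 4, 9, 5 and 19 members at weeks 6, 8, 10 and 12 and 25 over the 4 weeks. Of all tested genes 419, 475, 725 and 1076 passed as higher under it at these weeks. Cdc45 and Rrm1 at week 6 then had adjusted p of 0.0898 and 0.0675 (edgeR). The log2 fold change of Pola2 over the 4 weeks turned to -0.017 in the libraries without packets, -0.062 without libraries with high muscle markers and -0.00918 without those with the most genes at 0; the last 2 choices were made after the data were seen. No alternative gave a passing change between weeks or within a genotype. For the named genes, 1141 of the alternative values stayed on their side of the threshold, 77 fell under it, 3 rose past it and 3 reversed. At this depth a count of 0 in a library allows up to 3 counts, for counting error alone. The FVB libraries with a member at 0 had packets of 9 to 19 counts, which this limit leaves out.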
